A study of Homo sapiens with 8 samples.

Results

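The genes described here lie in bands p15 and p14 of chromosome 10, between about 3 and 12 Mb of the hg38 build. They were chosen by position from a stretch in which DU145 docetaxel resistant cells had less RNA than DU145 sensitive cells, and the aldo-keto reductase genes AKR1C1 to AKR1C4 of the same stretch were left out. There are 32 members among 60554 gene rows. Because the DU145 comparison led to this choice, the DU145 values below are a description and carry no test. The rule uses no PC3 value, and in PC3 each member with enough counts was tested.

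DU145 and PC3 are human cell lines grown from metastases of prostate cancer. The 8 bulk RNA-seq libraries fell into 4 groups of 2, namely DU145 resistant, DU145 sensitive, PC3 resistant and PC3 sensitive cells. All cells grew in RPMI medium with fetal bovine serum and antibiotics. The resistant variants were kept in 10 nM docetaxel, a taxane that stabilizes microtubules, and the sensitive variants in 0.1% DMSO. Each line is represented by a single resistant variant, so the comparisons are between these variants. Whether docetaxel was withdrawn before RNA was taken was not stated for these libraries. The labels do not say whether paired libraries are separate cultures, so p-values measure only the spread between libraries, which may be technical. In a bulk library, fewer cells with a transcript and less transcript per cell cannot be told apart.

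Total counts were 31685148 to 43045127 per library. Libraries of a group differed beyond counting noise (chi-square 17.7 to 48.2 times its degrees of freedom). The prostate luminal markers KLK3 and KLK2 were at 0 counts in every library. CPM below is a gene's count scaled to the TMM-adjusted library total. The summed level of 5 epithelial markers (EPCAM, KRT8, KRT18, KRT19 and CDH1), 0 of them at 0 counts, mostly KRT8 and KRT18, was 240.5 to 411 CPM in DU145 resistant libraries, against 2510 to 4210 CPM in DU145 sensitive libraries. In PC3 it was 939 to 975 CPM in resistant libraries, against 779 to 894 CPM in sensitive libraries. There KRT19 was the largest of the markers, at 400 and 542 CPM in resistant and 472 and 484 CPM in sensitive libraries. Of these markers, EPCAM was at 19.3 and 16.9 CPM in DU145 resistant libraries, against 21.7 and 19.8 CPM in DU145 sensitive libraries. The others were further apart in DU145. CDH1 was at 0.364 and 0.472 CPM in resistant and 24.2 and 20.9 CPM in sensitive libraries. KRT8 was at 28.3 and 29.7 CPM, against 2166 and 1247 CPM, and KRT18 at 330 and 155 CPM, against 1911 and 1136 CPM. KRT19 was at 32.8 and 38.2 CPM, against 86.8 and 86.1 CPM. The sum of 4 endothelial markers was 20.03 to 49.04 CPM in PC3 resistant libraries, against 7.10 to 7.23 CPM in PC3 sensitive libraries. PECAM1 was at 12.6 and 24.4 CPM in PC3 resistant and 6.67 and 6.97 CPM in PC3 sensitive libraries. KDR was at 7.14 and 24.3 CPM in PC3 resistant and 0.335 and 0.162 CPM in PC3 sensitive libraries. VWF and CDH5 were at no more than 0.292 CPM in PC3. The part of these marker differences in the values described here was not tested.

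The short arm of chromosome 10 ends in a stretch of genes whose products have little in common apart from their address. It holds a phosphofructokinase and the enzyme that makes its strongest activator, transcription factors of the Krüppel-like and GATA families, splicing and mRNA decay factors, regulators of small GTPases, a pair of interleukin receptor chains and several mitochondrial proteins. KLF6 has long been studied as a candidate tumour suppressor in prostate cancer, and GATA3 directs luminal epithelial and T cell identity.

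In DU145, the 24 members with enough counts for a fold change stood at a median of 45.9% of their sensitive level in resistant cells. Of the 28 members with enough counts for the test, 19 were called lower and 1 higher in DU145 resistant cells by edgeR's quasi-likelihood test, where 15.4% of 20238 tested genes were called lower and 12.4% higher. The DU145 contrast led to the choice of the members, so nothing is read from this count. In PC3, 8 of the 28 fell and 4 rose, where 35.6% of all tested genes changed in either direction. Those that rose included CELF2, an RNA-binding protein, which had 3.25 and 1.97 CPM in PC3 resistant libraries, against 0.335 and 0.227 CPM in PC3 sensitive libraries.

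The upstream sequences of the 2 members with the lowest DU145 ratios are shown first. The sequence between KIN and ATP5C1, which start back to back, follows. They are RefSeq sequences of GRCh38.p14, and capitals mark the GC box GGGCGG on either strand. Those of PROSER2 (chr10:11823106-11823355, plus strand) and ASB13 (chr10:5666596-5666845, minus strand) are the 250 bases before the RefSeq start. The KIN to ATP5C1 run covers chr10:7787994-7788146 and is given on the plus strand.
PROSER2: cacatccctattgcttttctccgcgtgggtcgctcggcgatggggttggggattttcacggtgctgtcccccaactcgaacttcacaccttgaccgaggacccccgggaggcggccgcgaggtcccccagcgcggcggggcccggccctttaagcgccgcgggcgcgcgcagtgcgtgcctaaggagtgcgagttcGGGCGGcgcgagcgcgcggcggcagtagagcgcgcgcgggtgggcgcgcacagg
ASB13: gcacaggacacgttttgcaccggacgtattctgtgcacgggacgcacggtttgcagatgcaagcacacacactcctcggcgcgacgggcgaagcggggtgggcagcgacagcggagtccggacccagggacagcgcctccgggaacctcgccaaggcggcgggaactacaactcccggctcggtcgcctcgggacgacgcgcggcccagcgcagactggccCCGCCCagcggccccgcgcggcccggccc
KIN-ATP5C1: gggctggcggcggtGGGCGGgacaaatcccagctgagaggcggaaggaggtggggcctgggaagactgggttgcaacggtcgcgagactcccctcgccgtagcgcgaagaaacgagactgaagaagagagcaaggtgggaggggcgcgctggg
Each run held 1 GC box. Promoters were matched for 30 of the 32 members, of which 20 held a GC box in the 250 bases before the start, against 42.6% of 35116 RefSeq promoters. The number of CG dinucleotides in these 250 bases ranged from 3 to 43 over the matched members, with a median of 25, against a median of 11 over all promoters. CCAAT was found in 10 of the 30, against 32.0% of all promoters, and TATAAA in 2, against 10.7%. Both strands were searched, and a match is a string of letters and not a site. The 35116 promoters were not matched to the members by gene type or expression, so no trait of the stretch is read from these comparisons.

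**Figure D1:**
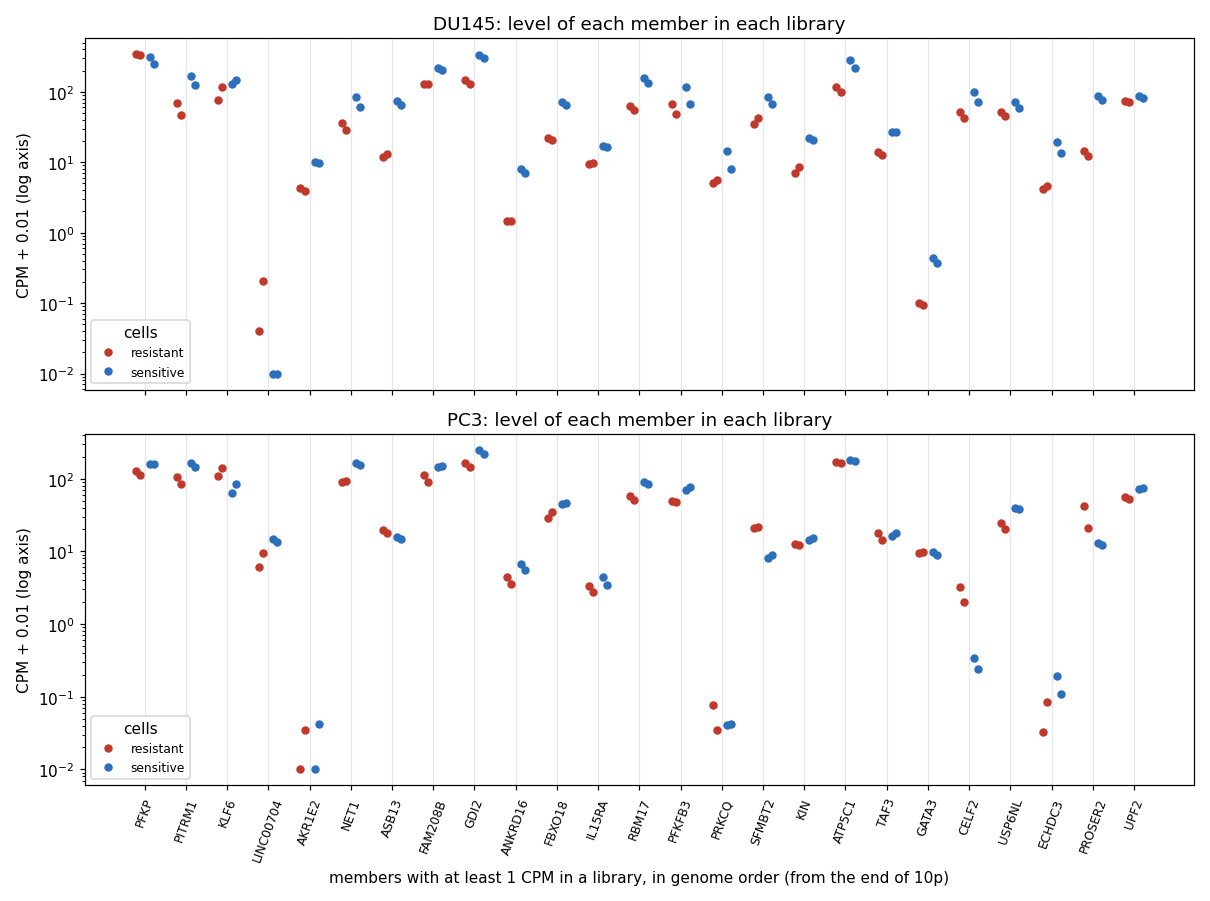
Level of the 25 members that reached 1 CPM in a library, in genome order from the end of 10p, with DU145 above and PC3 below. Each point is 1 library (resistant red, sensitive blue) on a log axis of CPM + 0.01. In DU145 the red points lie below the blue ones for nearly all members except PFKP and LINC00704, while in PC3 the red points of KLF6, ASB13, SFMBT2, CELF2 and PROSER2 lie above the blue ones.

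PFKP and PFKFB3 act at the committed step of glycolysis, PFKP as the platelet isoform of phosphofructokinase and PFKFB3 by making fructose 2,6-bisphosphate, which activates phosphofructokinase. PFKP (chromosome 10, 3066333 to 3137718, plus strand) is the member nearest the end of the arm and was one of the few that was not lower in DU145. It had 346 and 335 CPM in DU145 resistant libraries, against 310.2 and 251 CPM in DU145 sensitive libraries. The log2 fold change (resistant over sensitive) was 0.28 (SE 0.14), with 0.13 without DU145 sensitive replicate 2 and 0.46 without DU145 sensitive replicate 1, and the resistant libraries were the higher ones. In PC3 it had 129 and 113 CPM in PC3 resistant libraries, against 160.0 and 158 CPM in PC3 sensitive libraries. The PC3 difference of -0.39 (SE 0.14) did not pass the threshold (adjusted p = 0.0568 from edgeR with Benjamini-Hochberg adjustment over 20238 genes, as for all adjusted p below). With a replicate block and on the PC3 libraries alone it did pass.

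PFKFB3 had 67.1 and 49.1 CPM in DU145 resistant libraries, against 116 and 67.3 CPM in DU145 sensitive libraries. The libraries did not overlap, but one sensitive library stood close to the resistant ones, and the log2 fold change of -0.66 (SE 0.23) came to -0.19 when DU145 sensitive replicate 1 was left out, to -1.0 when DU145 sensitive replicate 2 was and to -0.42 when DU145 resistant replicate 2 was. In PC3, PFKFB3 was at 49.5 and 48.1 CPM in PC3 resistant libraries, against 69.4 and 77.1 CPM in PC3 sensitive libraries, a difference of -0.58 that did not pass (adjusted p = 0.0724). Per exon length, PFKP was the more abundant of the pair, at 43.8 and 36.1 RPKM (CPM per kilobase of exon) in DU145 resistant and sensitive cells, against 9.5 and 15 RPKM for PFKFB3.

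The transcription and chromatin genes were KLF6, GATA3, SFMBT2, TAF3 and FAM208B. All 5 had both DU145 resistant libraries below both sensitive ones, as did 32.1% of all tested genes. KLF6 had 75.7 and 118 CPM in DU145 resistant libraries, against 128 and 147 CPM in DU145 sensitive libraries, with a log2 fold change of -0.51 (SE 0.22) that was -0.23 without DU145 resistant replicate 1 and -0.83 without DU145 resistant replicate 2. In PC3, KLF6 was higher in resistant cells, at 109 and 139.9 CPM in PC3 resistant libraries, against 64.3 and 85.3 CPM in PC3 sensitive libraries. The PC3 rise of 0.73 (SE 0.22) passed the threshold (adjusted p = 0.0245), and its call was lost without PC3 sensitive replicate 1 or PC3 resistant replicate 2, with adjusted p from 0.000133 to 0.181 over all alternatives.

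SFMBT2, a protein with malignant brain tumour repeats that binds modified histones, lies at 7158624 to 7411488 on the minus strand. It was at 34.5 and 41.8 CPM in DU145 resistant libraries, against 85 and 66.5 CPM in DU145 sensitive libraries, or 50.3% of the sensitive level in DU145. In PC3 it was higher in resistant cells, with 21.2 and 21.6 CPM in PC3 resistant libraries, against 8.07 and 8.98 CPM in PC3 sensitive libraries. That rise of 1.33 (SE 0.18) passed the threshold (adjusted p = 0.000255) and kept its call under all 14 alternative fits.

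TAF3, a subunit of the general transcription factor TFIID that reads trimethylated histone H3, had 13.9 and 12.5 CPM in DU145 resistant libraries, against 26.5 and 26.6 CPM in DU145 sensitive libraries, 49.7% of the sensitive level. Its PC3 libraries overlapped, at 17.9 and 14.4 CPM in resistant and 16.2 and 17.9 CPM in sensitive cells. FAM208B, also named TASOR2 and related to a subunit of the HUSH silencing complex, had 129 and 128 CPM in DU145 resistant libraries, against 217 and 206 CPM in DU145 sensitive libraries. It was lower in PC3 as well, with 111 and 89.8 CPM in PC3 resistant libraries, against 143 and 147 CPM in PC3 sensitive libraries (log2 fold change -0.53, SE 0.14, adjusted p = 0.0118). This PC3 call was lost without PC3 sensitive replicate 1, PC3 sensitive replicate 2 or PC3 resistant replicate 2.

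GATA3 was near the limit of detection in DU145. It had 3 and 3 counts in DU145 resistant libraries, against 15 and 13 counts in DU145 sensitive libraries. The ratio of these counts was 0.22, given as a description because the DU145 contrast led to the choice of the members. In PC3 the level was 9.33 and 9.83 CPM in PC3 resistant libraries, against 9.63 and 8.79 CPM in PC3 sensitive libraries, and these libraries overlapped. Because GATA3 and IL2RA are also T cell genes, 9 T cell markers were summed. They came to 0.788 to 0.972 CPM in DU145 resistant libraries, against 0.533 to 1.04 CPM in DU145 sensitive libraries. In PC3 they came to 5.61 CPM in each resistant library, of which LCK made up 3.52 and 3.34 CPM, against 1.72 to 1.92 CPM in sensitive libraries. CD3E was at 0 counts in all 8 libraries, and CD3D and CD2 were at 0 in DU145.

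Among the RNA factors of the stretch, RBM17 is a splicing factor, CELF2 binds RNA and controls splicing and mRNA stability, and UPF2 is a core factor of nonsense-mediated mRNA decay. RBM17 had 63.5 and 54.5 CPM in DU145 resistant libraries, against 155 and 133 CPM in DU145 sensitive libraries, 40.9% of the sensitive level. In PC3 RBM17 fell to 58.2 and 50.2 CPM in resistant cells, against 89.3 and 83.2 CPM in sensitive cells (log2 fold change -0.67, SE 0.15, adjusted p = 0.00498). Without PC3 sensitive replicate 1 or PC3 resistant replicate 2, this call was lost.

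CELF2 (10798397 to 11336675, plus strand) is the longest of the members. DU145 cells expressed it well, with 51.2 and 42 CPM in DU145 resistant libraries, against 98.2 and 70.5 CPM in DU145 sensitive libraries. PC3 resistant libraries held 145 and 78 counts, against 11 and 7 counts in PC3 sensitive libraries. The PC3 rise of 3.20 (SE 0.39) on the log2 scale was the largest among the 25 members with a PC3 fold change (adjusted p = 0.000137), and it ranged from 2.79 to 3.51 over the alternatives with the call kept in all 14. The PC3 resistant level was 3.10% of the DU145 sensitive level, and the PC3 sensitive level 0.333% of it. Among 2537 genes with at least 100 CPM in DU145 sensitive cells, the lowest such share in PC3 sensitive cells was 0.17%. Whether the PC3 sensitive counts are transcripts of those cells was not tested.

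UPF2, at the far edge of the stretch, had the smallest DU145 difference below 0, with 74.1 and 70.6 CPM in DU145 resistant libraries, against 86 and 83 CPM in DU145 sensitive libraries (85.6% of the sensitive level). In PC3 it fell to 55.7 and 53 CPM in resistant cells, against 71.1 and 73.6 CPM in sensitive cells (log2 fold change -0.41, SE 0.12, adjusted p = 0.0213). That call was lost when any 1 of the 4 PC3 libraries was left out and without the low count filter, with log2 fold changes of -0.45 to -0.38 in those fits.

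FBXO18, also named FBH1, encodes a DNA helicase that acts on recombination intermediates, and KIN a zinc finger protein that binds DNA and RNA at replication. FBXO18 had 22.4 and 20.5 CPM in DU145 resistant libraries, against 72.2 and 65.8 CPM in DU145 sensitive libraries. In PC3 it had 29 and 34.8 CPM in PC3 resistant libraries, against 44.4 and 46 CPM in PC3 sensitive libraries, and the change of -0.50 (SE 0.15) passed the threshold (adjusted p = 0.021). The call was lost without PC3 sensitive replicate 1, PC3 sensitive replicate 2 or PC3 resistant replicate 1, and without the low count filter. ANKRD16, an ankyrin repeat protein that in mouse works with alanyl-tRNA synthetase, runs in the opposite direction beside FBXO18 and had 1.46 and 1.44 CPM in DU145 resistant libraries, against 8.05 and 6.91 CPM in DU145 sensitive libraries, 19.4% of the sensitive level. Its PC3 difference of -0.62 (SE 0.25) did not pass (adjusted p = 0.0749).

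KIN and ATP5C1, the gamma subunit of mitochondrial ATP synthase, start back to back with 183 bases between their RefSeq starts, the stretch printed in part above. The pair had similar DU145 values, at 36.2% and 44% of their sensitive levels. KIN had 6.91 and 8.44 CPM in DU145 resistant libraries, against 21.8 and 20.6 CPM in DU145 sensitive libraries. ATP5C1 had 118 and 99.7 CPM in DU145 resistant libraries, against 280.4 and 214 CPM in DU145 sensitive libraries. Neither passed in PC3, where KIN was at 12.6 and 12.1 CPM in resistant and 14.5 and 15.2 CPM in sensitive libraries and ATP5C1 at 169.7 and 163 CPM in resistant and 180.2 and 174 CPM in sensitive libraries (adjusted p = 0.289 and 0.689). Per exon length ATP5C1 was the most abundant member, at 72 and 76.8 RPKM in PC3 resistant and sensitive cells.

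The other mitochondrial members were PITRM1, a protease that clears cleaved targeting peptides, and ECHDC3, an enoyl-CoA hydratase family protein. PITRM1 had 69.8 and 47.5 CPM in DU145 resistant libraries, against 167 and 127 CPM in DU145 sensitive libraries. In PC3 it fell to 104 and 85.4 CPM in resistant cells, against 167 and 143 CPM in sensitive cells (log2 fold change -0.71, SE 0.20, adjusted p = 0.0205), a call lost without PC3 sensitive replicate 1 or PC3 resistant replicate 2. ECHDC3 was a DU145 transcript, with 4.18 and 4.55 CPM in DU145 resistant libraries, against 19.4 and 13.4 CPM in DU145 sensitive libraries. PC3 libraries held 1 and 3 ECHDC3 counts in resistant and 6 and 3 in sensitive cells, too few for a fold change.

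Among the signalling genes, NET1, USP6NL and GDI2 fell in PC3 and had DU145 resistant libraries below the sensitive ones. NET1, a nucleotide exchange factor for small GTPases, had 35.9 and 29.1 CPM in DU145 resistant libraries, against 83 and 60.8 CPM in DU145 sensitive libraries. In PC3 it fell to 89.9 and 91.5 CPM in resistant cells, against 164 and 155 CPM in sensitive cells, with no overlap (log2 fold change -0.82, SE 0.17, adjusted p = 0.0035). GDI2, which extracts Rab GTPases from membranes, had 147 and 128 CPM in DU145 resistant libraries, against 334 and 300.1 CPM in DU145 sensitive libraries, 43.4% of the sensitive level. Its PC3 fall to 162 and 144 CPM in resistant cells, against 250.3 and 222 CPM in sensitive cells, passed as well (log2 fold change -0.63, SE 0.14, adjusted p = 0.00643) but was lost without PC3 sensitive replicate 1 or PC3 resistant replicate 2.

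USP6NL, a Rab GTPase-activating protein of the endocytic route, was the signalling gene with the smallest DU145 difference, at 51 and 46 CPM in DU145 resistant libraries, against 72.4 and 58.8 CPM in DU145 sensitive libraries. The DU145 log2 fold change was -0.44, or -0.26 without DU145 sensitive replicate 1. In PC3 it fell to 24.7 and 20.0 CPM in resistant cells, against 39 and 38 CPM in sensitive cells (log2 fold change -0.78, SE 0.16, adjusted p = 0.00378). The calls of NET1 and USP6NL in PC3 held under all 14 alternative fits. PRKCQ, the theta isoform of protein kinase C, had 5.09 and 5.5 CPM in DU145 resistant libraries, against 14.6 and 8.12 CPM in DU145 sensitive libraries, while PC3 libraries held 3 and 1 PRKCQ counts in resistant and 1 and 1 in sensitive cells. The DU145 log2 fold change of PRKCQ was -1.10 with both sensitive libraries and -0.60 without DU145 sensitive replicate 1.

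ASB13 and PROSER2 had the lowest DU145 ratios among members with enough counts in both groups. ASB13, a substrate-binding subunit of ubiquitin ligases, was at 11.9 and 13 CPM in DU145 resistant libraries, against 74.5 and 64.3 CPM in DU145 sensitive libraries, a log2 fold change of -2.48 (SE 0.16). In PC3 both resistant libraries lay slightly above both sensitive ones, at 19.9 and 18.1 CPM in resistant and 16 and 14.7 CPM in sensitive cells, and the difference of 0.31 did not pass (adjusted p = 0.146). PROSER2 (11823339 to 11872277, plus strand) was at 14.6 and 12.3 CPM in DU145 resistant libraries, against 86.4 and 76.6 CPM in DU145 sensitive libraries, a log2 fold change of -2.60 (SE 0.28).

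In PC3 PROSER2 rose in resistant cells, with 42.6 and 20.9 CPM in PC3 resistant libraries, against 13.1 and 12.2 CPM in PC3 sensitive libraries. The 2 resistant libraries were far apart, and the rise of 1.33, SE 0.27 (adjusted p = 0.00373) was 0.73 without PC3 resistant replicate 1 and 1.75 without PC3 resistant replicate 2, with the call kept in both. An antisense transcript, PROSER2-AS1, overlaps the gene with 1.15% of its counts, and reads of the 2 strands cannot be told apart if strand was not used in counting, and the sources used here do not give that setting.

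**Figure D2:**
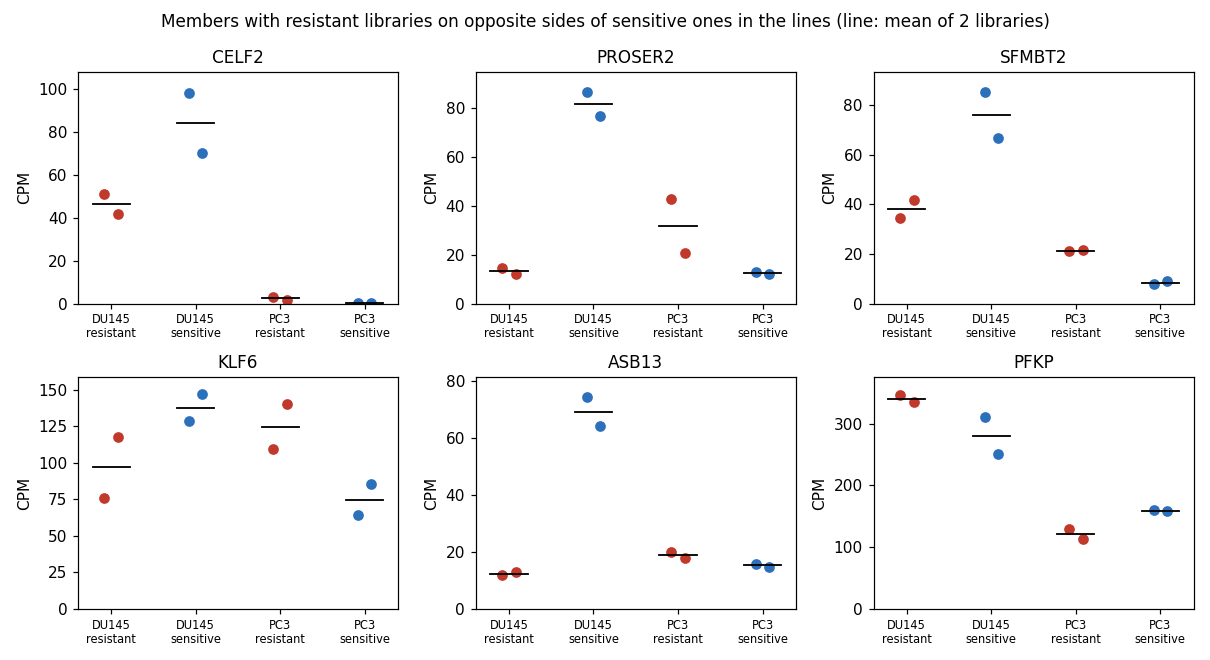
CPM of the 6 members, of 21 with a fold change in both lines, whose resistant libraries lay on opposite sides of the sensitive ones in the 2 lines, as did 25.1% of all such genes, with DU145 resistant, DU145 sensitive, PC3 resistant and PC3 sensitive cells from left to right. Each point is 1 library and each line the mean of 2. CELF2, PROSER2, SFMBT2 and KLF6 were lower in DU145 resistant and higher in PC3 resistant cells, and the PC3 differences of ASB13 and PFKP did not pass the threshold.

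The interleukin receptor chains differed in level. IL15RA, the alpha chain that presents interleukin 15, was expressed in both lines, with 9.58 and 9.88 CPM in DU145 resistant libraries, against 16.9 and 16.6 CPM in DU145 sensitive libraries. In PC3 it was at 3.34 and 2.78 CPM in resistant and 4.45 and 3.44 CPM in sensitive libraries, a difference of -0.36 that did not pass (adjusted p = 0.245). It was -0.17 without PC3 sensitive replicate 1, -0.24 without PC3 resistant replicate 2 and -0.54 without PC3 sensitive replicate 2. A long noncoding RNA overlaps the gene on the same strand, with 10.5% of its counts over all libraries together. The share within each line was not computed, so how uncertain this leaves the IL15RA values is not known. IL2RA, the interleukin 2 receptor alpha chain, had 0 and 2 counts in DU145 resistant and 3 and 0 in DU145 sensitive libraries and 0 in all PC3 libraries.

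AKR1E2, an aldo-keto reductase that reduces 1,5-anhydrofructose, lies beside the AKR1C genes and was a DU145 transcript, with 4.24 and 3.83 CPM in DU145 resistant libraries, against 10.2 and 9.62 CPM in DU145 sensitive libraries. Its share of the sensitive level was 40.9%. The 4 PC3 libraries held 0 or 1 count of it each. Its neighbours AKR1C1, AKR1C2 and AKR1C3, steroid-metabolizing reductases outside the list, had DU145 log2 fold changes of -9.11, -9.03 and -4.91. In PC3 they were at -0.05, -1.01 and -0.88, and 0 of the 3 passed.

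Several members were near the limit of detection. The calmodulin-like CALML5 was at 0 counts in all 8 libraries, where 0 counts in a library allow up to 3 counts, and CALML3 had at most 1 count in a library. ITIH2, a heavy chain that binds hyaluronan, had at most 3 counts. These and IL2RA were the 4 members that did not pass the low count filter. ITIH5, the other heavy chain, had 10 and 27 counts in DU145 resistant and 18 and 19 in DU145 sensitive libraries, which overlapped, and 12 and 17 in PC3 resistant and 15 and 15 in PC3 sensitive libraries (adjusted p = 0.58).

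TUBAL3, an alpha-tubulin-like gene, had 3 and 18 counts in DU145 resistant and 1 and 1 in DU145 sensitive libraries. In PC3 it had 14 and 8 in resistant and 1 and 14 in sensitive libraries (adjusted p = 0.94). The long noncoding RNA LINC00704 was a PC3 transcript, at 6.04 and 9.53 CPM in PC3 resistant libraries, against 15 and 13.6 CPM in PC3 sensitive libraries. Its PC3 difference of -0.88 (SE 0.34) did not pass (adjusted p = 0.0703) and was -0.58 without PC3 resistant replicate 1 and -1.24 without PC3 resistant replicate 2. This difference did pass with DESeq2, with a replicate block, on the PC3 libraries alone and without the low count filter, at -0.91 to -0.85. In DU145 it had 1 and 7 counts in resistant and 0 and 0 in sensitive libraries, and it was the member called higher. LINC00705, which overlaps it on the opposite strand over 22790 bases, had the same counts in every DU145 library. Reads in the shared bases cannot be told apart if strand was not used in counting. In PC3 LINC00705 had 12 and 15 counts in resistant and 19 and 9 in sensitive libraries.

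**Figure D3:**
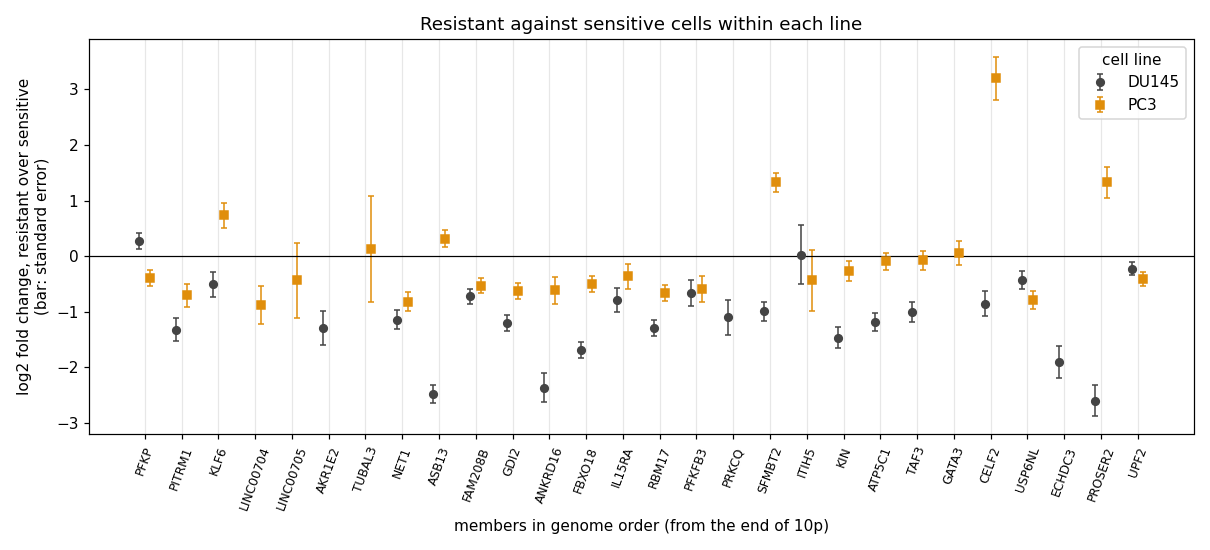
Log2 fold change of resistant over sensitive cells for each member with more than 6 counts in total in both groups of a line, in genome order, with DU145 as circles and PC3 as squares. Bars are standard errors. In DU145, 20 of 24 values lie at or below -0.5, while in PC3 the values run from -0.88 for LINC00704 to 3.20 for CELF2.

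Over the 24 members with a DU145 fold change, the median was -1.12, the lowest -2.60 and the highest 0.28. Of these, 5 lay at or below -1.5, 15 between -1.5 and -0.5, and 4 above -0.5. Over all tested genes with the same minimum of counts the median was 0.00, with 6.56% at or below -1.5 and 18.7% between -1.5 and -0.5. These DU145 values chose the members and stand as a description. For 23 of the 28 tested members both DU145 resistant libraries lay below both sensitive ones, where 32.1% of all tested genes did, and for 4 they lay above, where 29.2% did.

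In PC3, whose values the rule does not use, 8 of the 28 tested members were lower in resistant cells (28.6%), where 17.0% of all tested genes were. They were PITRM1, NET1, FAM208B, GDI2, FBXO18, RBM17, USP6NL and UPF2, with log2 fold changes of -0.82 to -0.41. KLF6, SFMBT2, CELF2 and PROSER2 were higher (14.3% of the 28), where 18.6% of all tested genes were. The median over the 25 members with a PC3 fold change was -0.41, against -0.02 over all tested genes with that minimum. Of these 25, 0 lay at or below -1.5, where 3.69% of all such genes did, and 10 between -1.5 and -0.5, where 20.4% did. PC3 resistant libraries lay below the sensitive ones for 17 of the 28 and above them for 5, where 35.1% and 36.1% of all tested genes did. The count of lower members was 2 without PC3 sensitive replicate 1, 5 without PC3 sensitive replicate 2 and 3 without PC3 resistant replicate 2, and over all genes the lower calls fell to 2004, 1983 and 2156 in these fits, against 3441 with every library.

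Both groups of called PC3 members lay interleaved along the arm. Going from the end of the arm, PITRM1 (lower, start 3137728) was followed by KLF6 (higher, start 3775996), then NET1, FAM208B, GDI2, FBXO18 and RBM17 (all lower, starts 5412557 to 6089034), SFMBT2 and CELF2 (higher, starts 7158624 and 10798397), USP6NL (lower, start 11460510), PROSER2 (higher, start 11823339) and UPF2 (lower, start 11920022). Coordinates are those of GENCODE 44 on hg38. The DU145 values of these 12 genes ran from -2.60 for PROSER2 to -0.22 for UPF2, all below 0.

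Levels in sensitive cells also set the lines apart, given here as a description because DU145 values entered the choice of the members. AKR1E2, PRKCQ, CELF2 and ECHDC3 in PC3 sensitive cells were at 0.164%, 0.277%, 0.333% and 0.855% of their DU145 sensitive means. ASB13, PROSER2, SFMBT2 and IL15RA were at 22.1%, 15.5%, 11.3% and 23.5%. Among members with any count in DU145 sensitive libraries, GATA3 stood highest, at 2339% of its DU145 sensitive mean, followed by TUBAL3 at 861%, both from few DU145 counts. NET1 was also higher in PC3 sensitive cells, at 222% of its DU145 sensitive mean, and PITRM1 was at 106%.

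**Figure D4:**
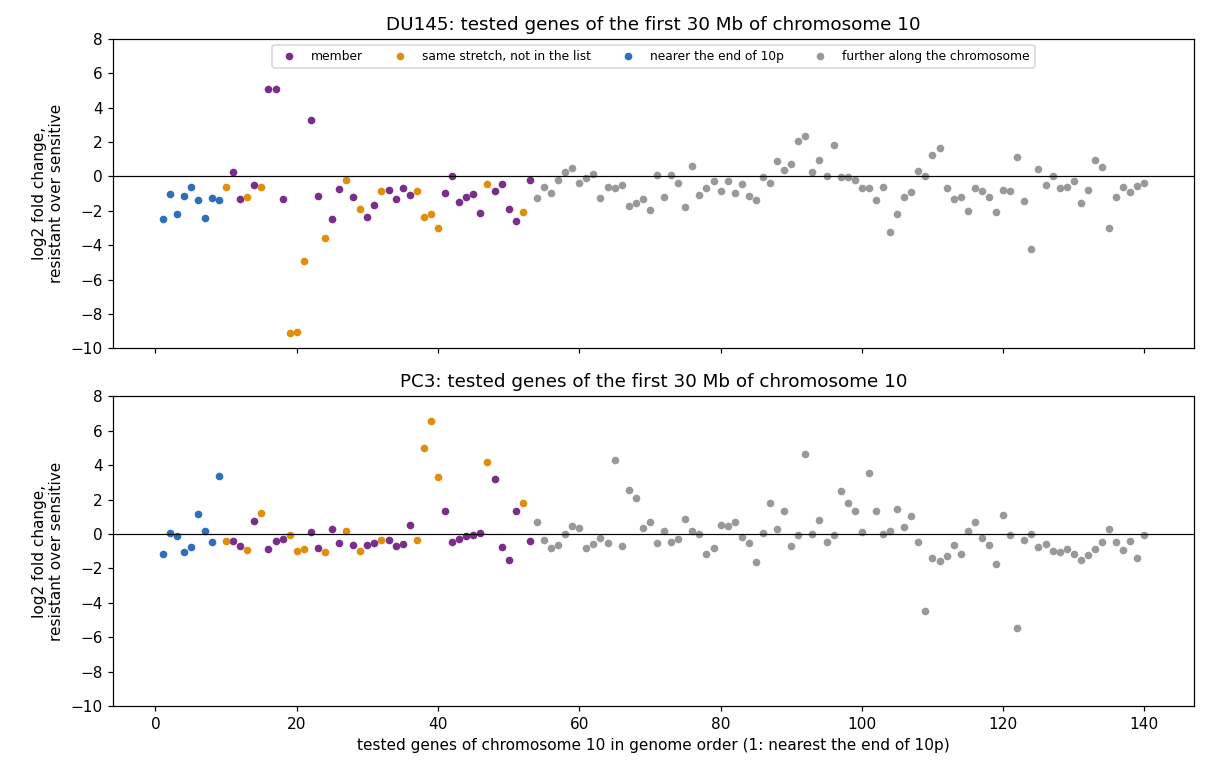
Log2 fold change of resistant over sensitive cells for the tested genes of the first 30 Mb of chromosome 10 in genome order, DU145 above and PC3 below. Members are purple, other genes of the same stretch orange, genes nearer the end of the arm blue and genes further along grey. In DU145 the genes on both sides of the members also lie mostly below 0, and the members near 3 and 5 are LINC00704, LINC00705 and TUBAL3, whose counts are too few for a fold change.

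The lower DU145 values did not stop at the edges of the stretch. On the side of the chromosome end, 8 protein-coding genes were tested before 3 Mb, and all 8 had both DU145 resistant libraries below both sensitive ones, where 32.1% of all tested genes did. Those nearest the first member were ADARB2, at no more than 0.0564 CPM in DU145, WDR37 and IDI1. WDR37 had 8.03 and 8.61 CPM in DU145 resistant libraries, against 18.1 and 22.3 CPM in DU145 sensitive libraries. IDI1, an isomerase of cholesterol synthesis, had 29.2 and 35.1 CPM in DU145 resistant libraries, against 136 and 204 CPM in DU145 sensitive libraries. Just inside that edge were PFKP and PITRM1, with DU145 log2 fold changes of 0.28 and -1.32. On the other side, PROSER2 and UPF2 inside the edge were at -2.60 and -0.22, and DHTKD1, SEC61A2 and NUDT5 outside it at -1.25, -0.64 and -0.95.

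Over protein-coding genes, the median DU145 log2 fold change was -1.28 before 3 Mb (7 genes with enough counts), -0.52 from 12 to 17 Mb (29 genes) and -0.02 from 17 Mb on (482 genes). In PC3 these medians were -0.31 (6 genes), -0.17 (29 genes) and -0.10 (466 genes). Being part of the DU145 contrast that led to the members, these values are a description too. Within the stretch, the AKR1C genes were the protein-coding genes that passed the filter and were outside the list.

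Genes elsewhere in the genome whose products work with the members gave a mixed picture. Of 66 such genes in 9 lists, 58 were tested. In DU145 14 were higher and 12 lower, where 12.4% and 15.4% of all tested genes were, and in PC3 8 were higher and 14 lower, where 18.6% and 17.0% were. Without PC3 sensitive replicate 2 the changed PC3 partners numbered 13, against 22 with every library. Nonsense-mediated decay partners of UPF2 in DU145 had 3 higher and 0 lower of 7, among them UPF3B, which joins UPF2 to the exon junction complex (42 and 40.3 CPM in resistant against 21.2 and 21.4 CPM in sensitive libraries, log2 fold change 0.95, adjusted p = 0.00088). In PC3 4 of these 7 fell and 1 rose. The median of the list was 0.30 in DU145 and -0.41 in PC3.

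Of 8 other KLF and GATA factors tested, 2 rose and 4 fell in DU145, and 6 rose and 0 fell in PC3, where KLF6 rose as well. KLF5 in DU145 had 31.4 and 20.7 CPM in DU145 resistant libraries, against 133 and 93.7 CPM in DU145 sensitive libraries (log2 fold change -2.12, adjusted p = 8.41e-05). KLF9 in PC3 had 10.7 and 14.8 CPM in PC3 resistant libraries, against 0.945 and 0.811 CPM in PC3 sensitive libraries (log2 fold change 3.85, adjusted p = 0.000273). GATA2, a relative of GATA3, rose in PC3 by 2.48 on the log2 scale (adjusted p = 0.00104). The list medians were -0.29 in DU145 and 1.03 in PC3.

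Among 8 genes of fructose phosphate metabolism related to PFKP and PFKFB3, 2 fell in DU145 and 1 in PC3, with 0 rises. FBP1, a fructose bisphosphatase that works against phosphofructokinase, fell in both lines, from low levels. It had 0.0909 and 0 CPM in DU145 resistant libraries, against 0.729 and 0.705 CPM in DU145 sensitive libraries (adjusted p = 0.0073), and in PC3 it changed by -1.89 on the log2 scale (adjusted p = 0.0165). PFKFB1, a relative of PFKFB3, was at no more than 0.564 CPM in DU145 (log2 fold change -2.15, adjusted p = 0.0459).

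IL15, the ligand of the IL15RA complex, rose in DU145, with 4.67 and 7.44 CPM in DU145 resistant libraries, against 2.1 and 1.66 CPM in DU145 sensitive libraries (adjusted p = 0.00186), and fell in PC3, with 2.31 and 2.4 CPM in PC3 resistant libraries, against 8.9 and 9.86 CPM in PC3 sensitive libraries (adjusted p = 0.000461). JAK3, a kinase of the shared receptor, fell in DU145 (log2 fold change -2.22, adjusted p = 0.000953). IL2RB, the shared beta chain, had 0 and 1 counts in DU145 resistant libraries, against 14 and 34 counts in DU145 sensitive libraries. PC3 libraries held at most 3 IL2RB counts, so the gene passed the low count filter only through the DU145 sensitive libraries. The filter thus favoured a lower call in DU145, and no p is given for it. The signalling gamma chain IL2RG did not pass the low count filter. Of the 4 tested genes of this list, 2 were called higher and 2 lower in DU145, with IL2RB among the lower, and 1 fell in PC3.

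Of 10 relatives and targets of NET1, GDI2 and PRKCQ, 4 rose and 2 fell in DU145. PRKCH, the eta isoform of protein kinase C, had 19.9 and 15.8 CPM in DU145 resistant libraries, against 5.58 and 4.96 CPM in DU145 sensitive libraries (adjusted p = 5.77e-05), and PRKCI, the iota isoform, had 166 and 167 CPM in DU145 resistant libraries, against 366 and 476 CPM in DU145 sensitive libraries (adjusted p = 0.000171). In PC3 1 rose and 1 fell.

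Among the other lists, 1 of 4 ATP synthase F1 subunits fell in DU145, namely ATP5A1 (-0.61, adjusted p = 0.0121), and 0 changed in PC3. Of 12 TFIID subunits, 3 rose and 1 fell in DU145, and 5 fell in PC3, with TAF10 at 14.8 and 19.4 CPM in PC3 resistant libraries, against 41 and 41.9 CPM in PC3 sensitive libraries (adjusted p = 0.000207). Of 5 HUSH complex genes, 0 passed in DU145 and 2 fell in PC3, among them MPHOSPH8 (-1.08, adjusted p = 0.000158). None of the 5 genes of the ITIH family and AMBP list passed the low count filter.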

How the data were processed

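Bulk RNA-seq counts of 8 libraries, 2 in each of 4 groups taken from the sample titles, were analysed. The authors deposited unnormalized gene counts, which they made from reads aligned to hg38 with Bowtie, per the labels. The sources used here do not give the Bowtie version, counter, annotation or strand setting.

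Genes were placed with GENCODE 44 by ID (56558 of 60554 rows). Counts were filtered with filterByExpr, which left 20238 genes, scaled by TMM (factors 0.951 to 1.038) and fitted with a mean per group to all 8 libraries in edgeR 4.0.16 (R 4.3.3), with 4 residual degrees of freedom. In each line the resistant group was compared with the sensitive one by edgeR's quasi-likelihood test, and p was adjusted by Benjamini-Hochberg over all genes (threshold 0.05). Standard errors (SE) are the absolute log2 fold change over the square root of F. Fold changes are given where both groups of a line had more than 6 counts in total. RPKM was computed from GENCODE exon length. Every member is named. Other genes named are the remaining tested coding genes of the stretch, the 3 coding genes beyond each edge, up to 3 changed partners a list by absolute fold change, and cell type markers. The alternatives were RLE scaling, DESeq2 1.42.0, 2 other low count filters (none, and 1 CPM in 4 libraries), fits on 1 line, a replicate block, leaving out each library and a threshold of 0.01. The steps were tested on simulated data. The members and lists were chosen with earlier results of these data known.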

Additional observations from a re-analysis of the deposited data

Results flagged for a closer look

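For 6 of the 21 members with a fold change in both lines, both resistant libraries lay on one side of both sensitive libraries in DU145 and on the other side in PC3. Over all tested genes with a fold change in both lines, 25.1% did so, a share near that of the members. The difference between the lines was not tested, because the DU145 values chose the members. On the log2 scale, CELF2 was at -0.86 in DU145 and 3.20 in PC3, PROSER2 at -2.60 and 1.33, SFMBT2 at -0.99 and 1.33, and KLF6 at -0.51 and 0.73. ASB13 was at -2.48 in DU145 and 0.31 in PC3, and PFKP at 0.28 in DU145 and -0.39 in PC3. These last 2 PC3 differences did not pass the threshold.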

How the results depend on the processing

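The count of members lower in PC3 was 8 and that of members higher 4. With an adjusted p under 0.01 they were 4 and 3, since fewer genes pass a stricter threshold. Leaving out 1 library at a time gave 2 to 9 lower and 3 to 4 higher. Members lower in DU145 numbered 16 to 22 over the alternatives that kept every library, against 19. Over all tested genes the lower DU145 calls numbered 1842 to 4112 in these fits, against 3120. The DU145 contrast led to the choice of the members, so nothing is read from the DU145 member counts. The single member called higher in DU145, LINC00704, was not called with a filter of 1 CPM in 4 libraries, on the DU145 libraries alone or at 0.01 (0 members each), 3 members were called without a filter, and leaving out 1 library gave 0 to 2. Partner genes changed in DU145 numbered 26, with 17 at 0.01 and 19 to 25 with 1 library left out. Those changed in PC3 numbered 22, with 14 at 0.01, 34 with a replicate block and 13 to 24 with 1 library left out. The causes were not tested.

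Of the 12 PC3 calls, those of NET1, USP6NL, SFMBT2, CELF2 and PROSER2 held in all 14 alternative fits. No called value changed sign. ITIH5 in DU145 was 0.03, against -0.047 with a replicate block and -0.74 to 0.51 with 1 library left out. With 1 library left out, TUBAL3 in PC3 ran from -0.80 to 2.95, LINC00705 in PC3 from -0.84 to 0.14, TAF3 in PC3 from -0.24 to 0.074 and GATA3 in PC3 from -0.012 to 0.12, where 0 of these 4 passed with every library. A replicate block added 4 PC3 member calls and ended none. Nothing says that the replicate numbers pair the libraries, whose deviations of like number correlated at 0.323 in DU145 and 0.0861 in PC3. Depth limits the members with few counts, and 2 libraries per group limit the rest.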

Other observations

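Besides the members and the AKR1C genes, the tested genes of the stretch were 13 long noncoding RNAs. In DU145 6 of them were called lower and 0 higher, where 15.4% and 12.4% of all tested genes were, and since DU145 values led to the choice of the stretch this count is a description. In PC3 4 were higher and 1 lower, where 18.6% and 17.0% of all tested genes were. A cluster of these, chosen after its values were seen, lies between PRKCQ and SFMBT2. LINC00707 (6779549 to 6842906, plus strand) had 8.06 and 4.14 CPM in DU145 resistant libraries, against 43.4 and 54.2 CPM in DU145 sensitive libraries. In PC3 it rose to 2.96 and 1.84 CPM in resistant cells, against 0.183 and 0.292 CPM in sensitive cells (log2 fold change 3.33, SE 0.48, adjusted p = 0.000446). Its neighbour RP11-554I8.2 had 8.49 and 8.97 CPM in DU145 resistant libraries, against 46.5 and 42.1 CPM in DU145 sensitive libraries, and it rose in PC3 to 11.2 and 7.25 CPM in resistant cells, against 0.335 and 0.227 CPM in sensitive cells (adjusted p = 1.7e-06). SFTA1P, which lies next to CELF2, rose in PC3 to 11.8 and 5.96 CPM in resistant cells, against 0.396 and 0.584 CPM in sensitive cells (adjusted p = 3.18e-05).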
